A study of Homo sapiens with 12 samples.

Results

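The 37 genes described here encode the carriers and enzymes that take glucose to lactate, and genes that sense hypoxia or answer to the hypoxia-inducible factor HIF. They were chosen by symbol, as the rows of the count table whose Ensembl ID maps to a listed gene, and all 37 were found among the 20015 genes of the table. The glycolysis genes number 24: the carriers SLC2A1 and SLC16A3, the enzymes HK1, HK2, GPI, PFKL, PFKM, PFKP, ALDOA, ALDOC, TPI1, GAPDH, PGK1, PGAM1, ENO1, ENO2, PKM, LDHA and LDHB, the regulators PFKFB2, PFKFB3 and PFKFB4, and PDK1 and PDHA1 at the entry to mitochondrial oxidation. The HIF genes number 13: HIF1A, EGLN1 and EGLN3 in the oxygen-sensing arm, and the targets BNIP3, BNIP3L, CA9, ANKRD37, NDRG1, P4HA1, P4HA2, KDM3A, ADM and MXI1. RNA sequencing covered 12 libraries of HT29, a human colorectal adenocarcinoma line made to express Cas9, in a study of how QRICH1 shapes the transcriptional response to endoplasmic reticulum (ER) stress. The 4 groups of 3 libraries were QRICH1 KO Tm, QRICH1 KO DMSO, WT Tm and WT DMSO. QRICH1 KO cells carried a lentiviral guide RNA against QRICH1 and WT cells a non-targeting one, so both genotypes carry Cas9 and a lentiviral guide. Tm groups were exposed to tunicamycin at 0.3 µg/ml for 14 h and DMSO groups to the solvent. The labels do not say whether the KO cells are a clone or a pool, but the design text does call the 3 libraries biological replicates.

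Glycolysis turns glucose into pyruvate through a chain of cytosolic enzymes, and its pace is set mainly by glucose entry, hexokinase, phosphofructokinase and pyruvate kinase. Many colorectal cancer cells convert much of the pyruvate to lactate and export it even when oxygen is present. HIF-1 alpha, the protein made from HIF1A, is hydroxylated and destroyed while oxygen is plentiful, and when stable it raises transcription of many glycolytic genes through sites with the core ACGTG. Tunicamycin stops N-linked glycosylation at its first step, and unfolded glycoproteins collect in the ER and the unfolded protein response is switched on.

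Promoter sequence was read for the members from RefSeq windows on GRCh38.p14, as the 250 bases before each listed transcription start. Windows were listed for 34 of the 37 genes, with 64 windows in all because some genes have several starts. The 4 windows below are shown because SLC2A1, PFKL and PKM passed the test for Tm in both genotypes, and because LDHA, called in WT cells, had the most copies of the HIF core among the 4. They lie at chr1:42958869-42959118 on the minus strand (SLC2A1), chr11:18394313-18394562 on the plus strand (LDHA, the first of its 2 listed starts), chr21:44299803-44300052 on the plus strand (PFKL) and chr15:72231191-72231440 on the minus strand (PKM). Each is printed 5′ to 3′ along its gene, and capitals mark ACGTG or its reverse complement; the palindrome CACGTG holds the core on both strands and so gives 2 matches that overlap.
SLC2A1: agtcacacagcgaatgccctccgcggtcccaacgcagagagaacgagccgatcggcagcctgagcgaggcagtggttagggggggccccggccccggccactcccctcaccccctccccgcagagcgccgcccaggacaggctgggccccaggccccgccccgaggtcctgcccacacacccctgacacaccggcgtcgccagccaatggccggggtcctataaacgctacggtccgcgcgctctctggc
LDHA: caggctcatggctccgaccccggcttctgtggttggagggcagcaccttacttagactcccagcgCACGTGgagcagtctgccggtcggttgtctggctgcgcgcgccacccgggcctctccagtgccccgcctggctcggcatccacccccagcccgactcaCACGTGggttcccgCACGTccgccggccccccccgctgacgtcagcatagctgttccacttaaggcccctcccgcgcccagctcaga
PFKL: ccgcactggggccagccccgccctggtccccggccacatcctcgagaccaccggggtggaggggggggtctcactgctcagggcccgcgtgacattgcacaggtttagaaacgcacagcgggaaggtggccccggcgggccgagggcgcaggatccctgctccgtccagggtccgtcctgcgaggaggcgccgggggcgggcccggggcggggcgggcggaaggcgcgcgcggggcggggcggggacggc
PKM: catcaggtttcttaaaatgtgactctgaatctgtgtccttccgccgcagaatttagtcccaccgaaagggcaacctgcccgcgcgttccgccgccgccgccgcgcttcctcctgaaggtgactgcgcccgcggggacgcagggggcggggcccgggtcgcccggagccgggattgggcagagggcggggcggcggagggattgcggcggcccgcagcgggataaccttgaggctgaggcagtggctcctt

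The LDHA window held 5 matches, 2 of them on the strand of the gene, and the nearest lay 68 bases before the start. The SLC2A1, PFKL and PKM windows held 0 matches, which says only that these letters are not in these windows. Over the members, 23 of 64 windows (35.9%) held ACGTG on either strand, against 20.2% of the 21577 windows of genes in the count table. Counted by gene, 20 of 34 members (58.8%) had a window with it, against 25.5% of the 15316 genes of the count table that had a window. The 20 were 14 of 23 glycolysis genes and 6 of 11 HIF genes. Members had more windows per gene (64 for 34) than genes of the count table (21577 for 15316), which favours members in a count by gene. The C/EBP-ATF response element TGATGNAA, at which ATF4 and CHOP bind, was in 2 of 64 member windows (3.1%), both of HK1, against 2.4% of the windows of genes in the count table. These matches describe letters in a window and were not tested against the expression values.

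All 37 genes passed the count filter (11323 of 20015 genes did). Total counts ran from 6856736 to 17861844 per library, so that 3 counts (what a count of 0 still allows) equalled 0.169 to 0.456 CPM (counts per 1000000, scaled by TMM), for counting error only. Library 3 of QRICH1 KO Tm and library 3 of QRICH1 KO DMSO had counts for more genes (14813 and 15340) than the other 10 libraries (13124 to 14094). Of the epithelial markers KRT8 stood at 34074 to 59636 CPM and EPCAM at 1486 to 2003 CPM, whereas the intestinal factor CDX1 was at or near 0 (0 to 0.0565 CPM) and CDX2 at 0.226 to 1.44 CPM. The colonic epithelial markers LGALS4 and VIL1 were expressed, at 205 to 521 CPM and 44.7 to 88.6 CPM. Of 22 markers of non-epithelial cells, all but LYZ together gave 3.17 to 7.51 CPM per library. LYZ, which Paneth cells of the gut epithelium also make, stood at 1832 to 2651 CPM. Its log2 fold change by Tm was -0.08 (adjusted p = 0.687, SE 0.12) in QRICH1 KO cells and -0.36 (adjusted p = 0.0305, SE 0.12) in WT cells, where it was called lower, and its part in the Tm results was not tested. The LYZ call in WT cells was lost without WT Tm library 1, WT Tm library 2, WT Tm library 3, WT DMSO library 1 or WT DMSO library 2, at -0.39 to -0.30 (adjusted p = 0.0550 to 0.105). QRICH1 mRNA was at 26.8, 22.4 and 19.2 CPM in QRICH1 KO Tm, 23.3, 24.1 and 24.8 CPM in QRICH1 KO DMSO, 30.8, 31.0 and 25.7 CPM in WT Tm and 22.7, 31.1 and 35.0 CPM in WT DMSO. It passed the test in no comparison (edgeR adjusted p = 0.352 under Tm and 0.577 under DMSO). A small insertion or deletion made by Cas9 can leave the mRNA in place, so this level does not check the guide.

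Per kilobase of exon, 7 glycolytic enzymes led. Averaged over the 12 libraries, GAPDH stood at 2683 CPM per kb, ENO1 at 1839.7, TPI1 at 1041, LDHA at 668, PKM at 509, PGK1 at 376 and GPI at 177. These 7 genes held 93.9% to 96.0% of all glycolysis CPM in each library. Within the isoenzyme pairs one form dominated: HK1 over HK2 (25.9 and 3.58 CPM per kb), ENO1 over ENO2 (1839.7 and 2.10), and LDHA over LDHB (668 and 31.3). Of the phosphofructokinases, PFKP stood at 52.1 CPM per kb, PFKL at 12.6 and PFKM at 7.22. The HIF genes ranged from 11.7 CPM per kb for P4HA1 and 11.6 for HIF1A down to 0.296 for NDRG1, 0.252 for BNIP3 and 0.219 for ANKRD37, a range that overlaps with the less abundant glycolysis genes.

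Several members share exon bases with other genes, and whether the assignment of reads limits their levels was not tested. ALDOA, usually among the most abundant glycolytic transcripts, stood at only 4.96 CPM per kb, and 1657 bases (42.3%) of its exons are shared on the same strand with the coding gene AC093512.2. LDHB shares 33.4% of its exons with AC010197.2 and GPI 5.1% with AC092073.1. Summed over the libraries, AC093512.2 had 97 counts beside 3085 for ALDOA. AC010197.2 had 9 beside 14075 for LDHB, and AC092073.1 had 0 beside 290130 for GPI. How the authors counted reads in shared exons, or reads that also match processed pseudogenes of GAPDH, ENO1, TPI1, LDHA, PGK1 and PGAM1, is not stated in the labels or notes. The library chemistry does not mark strand, so reads within exon bases shared with an opposite-strand coding gene cannot be assigned by strand. This holds for SLC16A3, PFKM, PFKFB2, PDHA1, BNIP3L, CA9 and ANKRD37 (with CSNK1D, SENP1, YOD1, MAP3K15, PNMA2, ARHGEF39 and UFSP2, in this order). In the same order they share 482, 628, 315, 956, 330, 643 and 909 exon bases. TPI1 shares 14 with SPSB2.

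**Figure D1:**
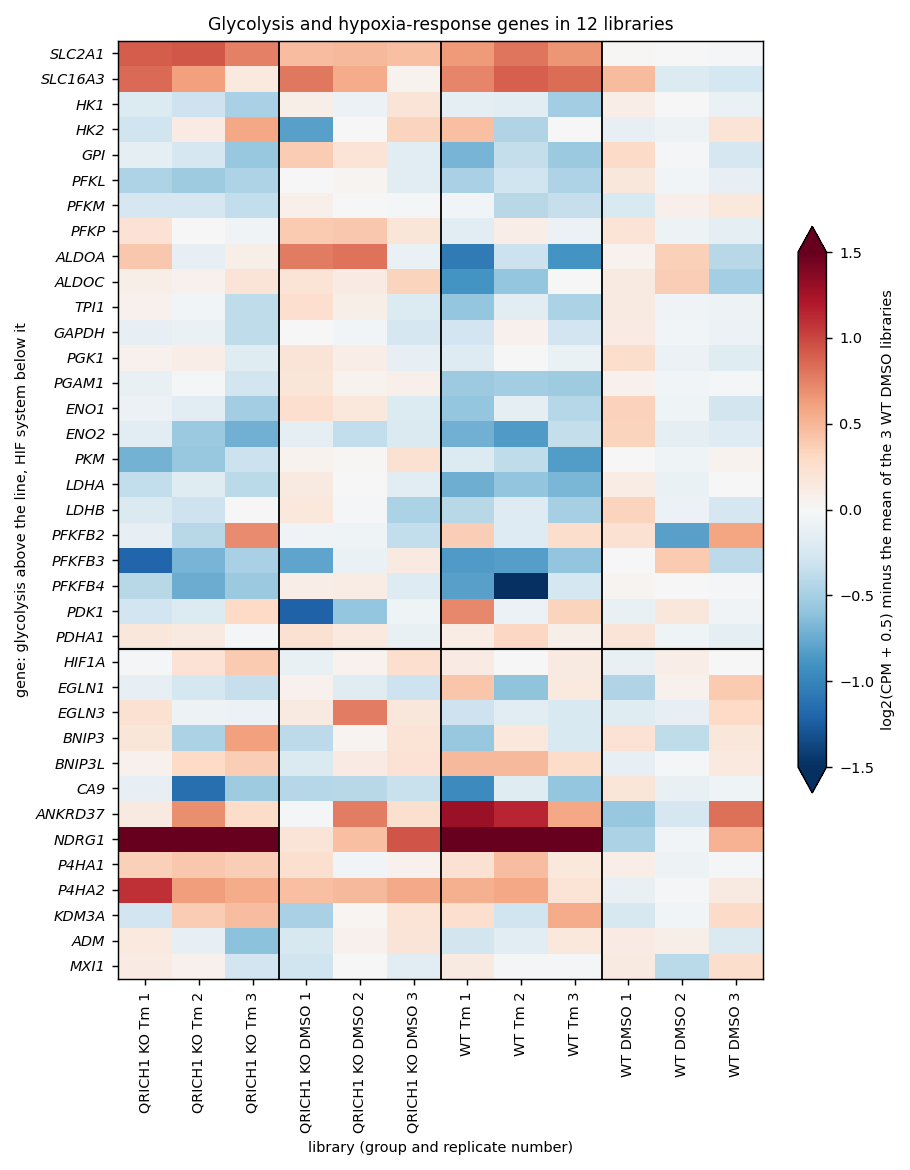
Heat map of log2(CPM + 0.5) of the 37 genes (rows, by role) in the 12 libraries (columns, by group), each gene shown as its difference from its WT DMSO mean. Blue cells fill most rows of glycolytic enzymes in the Tm libraries of both genotypes, while SLC2A1 and NDRG1 are red there (NDRG1 averaged 4.66 CPM in QRICH1 KO Tm and 0.621 CPM in WT DMSO).

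Among the 24 glycolysis genes, every called carrier of glucose or lactate rose under Tm and every called enzyme fell. In QRICH1 KO cells 1 of 24 glycolysis genes rose (SLC2A1) and 3 fell (HK1, PFKL and PKM), beside 9.09% higher and 6.53% lower of all genes tested (15.6% in all). In WT cells 2 rose (SLC2A1 and SLC16A3) and 9 fell (GPI, PFKL, ALDOA, PGAM1, ENO2, PKM, LDHA, PFKFB3 and PFKFB4), beside 12.6% higher and 11.1% lower of all genes (23.8% in all). The median log2 fold change of the 24 was -0.23 in QRICH1 KO cells and -0.39 in WT cells, with 18 of 24 below 0 in each, while the median of all genes was -0.00387 and -0.0239. Of the 13 HIF genes, NDRG1 rose in QRICH1 KO cells, and NDRG1 and P4HA2 rose in WT cells. As shares, the HIF genes that rose were 7.69% in QRICH1 KO cells and 15.4% in WT cells, near the shares of all genes called higher. The 4 glycolysis calls in QRICH1 KO cells (16.7% of 24) are also near the share of all genes, whereas the 11 in WT cells are 45.8%. By direction, 8.33% of the 24 rose in WT cells, under the share of all genes, and 37.5% fell. The members were chosen with earlier results of these data known, so these shares do not test the pathway. No HIF gene fell in either genotype by edgeR, and 0 did so at an unadjusted p under 0.05 or by DESeq2. Calls use edgeR's quasi-likelihood test with Benjamini-Hochberg adjustment over all 11323 genes, at an adjusted p under 0.05. Over both arms 37 genes gave 5 calls in QRICH1 KO cells and 13 in WT cells. The 4 genes called in both (SLC2A1, PFKL, PKM and NDRG1) are 80.0% of the QRICH1 KO list and 30.8% of the WT list. These counts moved with the setting. For QRICH1 KO cells 8 glycolysis genes fell on library totals without TMM factors, 5 by DESeq2 and 5 with no count filter, and 2 rose without QRICH1 KO DMSO library 3. In WT cells 16 fell on library totals, 3 without WT Tm library 1, 5 without WT DMSO library 1 and 5 without WT DMSO library 2, and 1 rose without WT DMSO library 2 or 3. For HIF genes in WT cells 1 rose on library totals, 1 without QRICH1 KO DMSO library 2, WT Tm library 1 or 2 or WT DMSO library 1 or 2, and 4 without WT DMSO library 3.

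**Figure D2:**
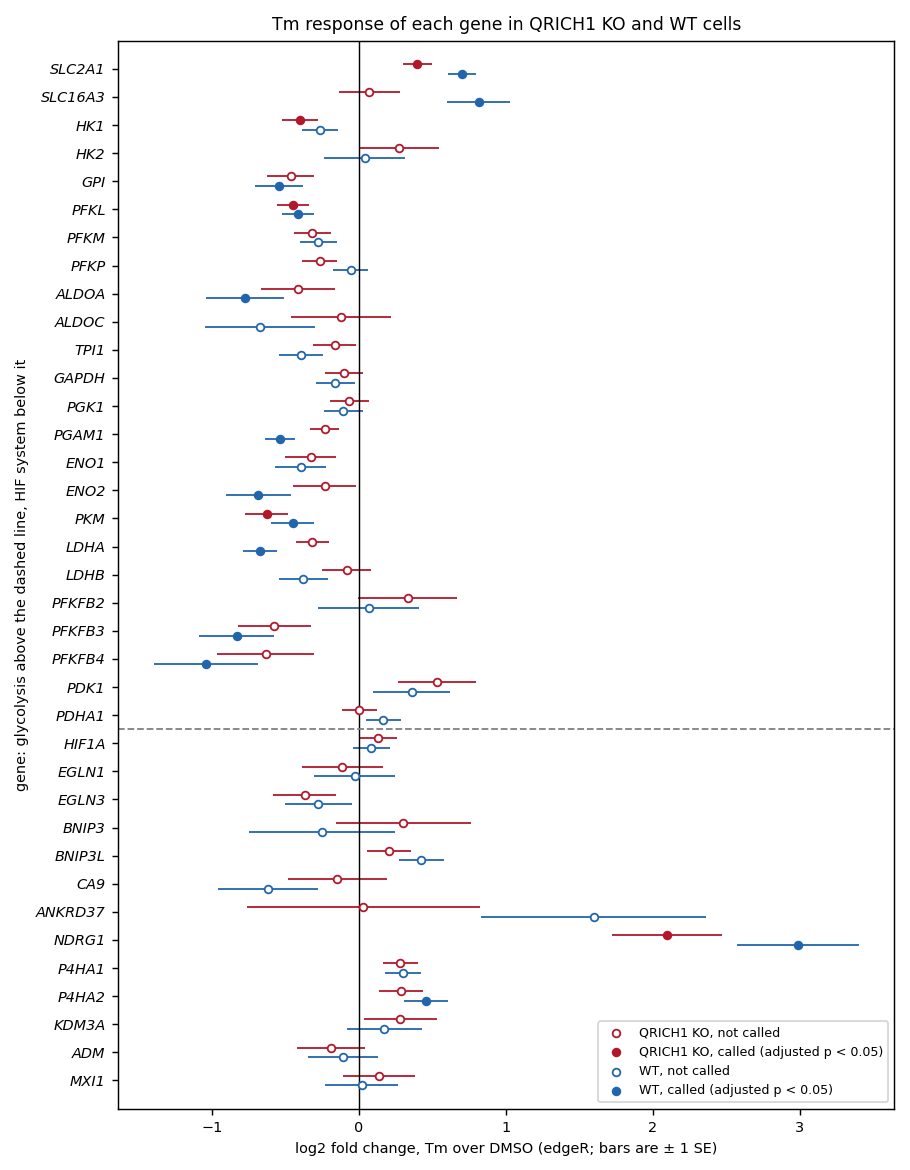
Tm response of the 37 genes as log2 fold change of Tm over DMSO (horizontal axis, bars ± 1 SE) in QRICH1 KO cells (red) and WT cells (blue), filled where the gene was called. The enzymes lie mostly left of 0 in both genotypes, with SLC2A1 and NDRG1 to the right (NDRG1 at 2.10 in QRICH1 KO and 2.99 in WT).

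SLC2A1 encodes GLUT1, the main basal glucose carrier of many cells (ENSG00000117394.21, chr1:42925375-42959176, minus strand, hg38). SLC2A1 had 788, 801 and 709 CPM in QRICH1 KO Tm, against 579, 591 and 574 CPM in QRICH1 KO DMSO, and 656, 734 and 667 CPM in WT Tm, against 428, 423 and 412 CPM in WT DMSO. Every Tm library lay above every DMSO library of its genotype. In QRICH1 KO cells the log2 fold change by Tm was 0.40 (adjusted p = 0.00815, SE 0.10), and in WT cells it was 0.70 (adjusted p = 2.66e-05, SE 0.10). SLC16A3 encodes MCT4, which exports lactate. SLC16A3 had 46.6, 39.3 and 28.5 CPM in QRICH1 KO Tm, against 44.7, 37.7 and 26.6 CPM in QRICH1 KO DMSO, and 42.9, 48.0 and 46.2 CPM in WT Tm, against 35.7, 22.1 and 21.2 CPM in WT DMSO. The WT Tm libraries lay above the WT DMSO libraries, whereas the QRICH1 KO libraries of both treatments overlapped. The SLC16A3 log2 fold change was 0.07 (adjusted p = 0.869, SE 0.21) in QRICH1 KO cells and 0.82 (adjusted p = 0.00935, SE 0.21) in WT cells. The SLC16A3 call in WT cells was lost without WT DMSO library 2 or WT DMSO library 3, at log2 fold changes of 0.70 and 0.68 and adjusted p-values of 0.0592 and 0.0508.

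Among the enzymes of the preparatory phase, which spends ATP, HK1 phosphorylates glucose to trap it in the cell. HK1 had 154, 143 and 126 CPM in QRICH1 KO Tm, against 189, 166 and 202 CPM in QRICH1 KO DMSO, and 161, 158 and 123 CPM in WT Tm, against 189, 178 and 165 CPM in WT DMSO. Tm libraries lay below DMSO libraries in both genotypes, narrowly in WT. For HK1 the fitted log2 fold change by Tm came to -0.40 (adjusted p = 0.0348, SE 0.12) in QRICH1 KO cells and -0.26 (adjusted p = 0.137, SE 0.12) in WT cells. The HK1 call in QRICH1 KO cells was lost without QRICH1 KO Tm library 2, QRICH1 KO Tm library 3, QRICH1 KO DMSO library 1, QRICH1 KO DMSO library 3 or WT DMSO library 2, at log2 fold changes of -0.41, -0.32, -0.39, -0.33 and -0.40 and adjusted p-values of 0.0914, 0.146, 0.0897, 0.108 and 0.0503. Without library 3 of both QRICH1 KO groups it was -0.26 (adjusted p = 0.271). HK1 passed the threshold in WT cells on library totals without TMM factors, at -0.44 (adjusted p = 0.0136). GPI interconverts glucose 6-phosphate and fructose 6-phosphate. GPI had 1906, 1757 and 1403 CPM in QRICH1 KO Tm, against 2711, 2414 and 1872 CPM in QRICH1 KO DMSO, and 1287, 1631 and 1423 CPM in WT Tm, against 2535, 2042 and 1753 CPM in WT DMSO. The WT groups did not overlap, and the QRICH1 KO groups did. On the log2 scale the Tm difference was -0.47 (adjusted p = 0.0565, SE 0.16) in QRICH1 KO cells and -0.54 (adjusted p = 0.0188, SE 0.16) in WT cells. The GPI call in WT cells was lost without WT Tm library 1, WT Tm library 3 or WT DMSO library 1, at log2 fold changes of -0.45, -0.53 and -0.39 and adjusted p-values of 0.0930, 0.0627 and 0.104. GPI passed the threshold in QRICH1 KO cells on library totals without TMM factors, by DESeq2, with no count filter, with the replicate block or without QRICH1 KO Tm library 1, QRICH1 KO DMSO library 3, WT Tm library 2, WT DMSO library 1 or WT DMSO library 3, at -0.60 to -0.46 (adjusted p = 0.00193 to 0.0498).

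PFKL is the liver-type subunit of phosphofructokinase, the committed step (ENSG00000141959.17, chr21:44300051-44327376, plus strand, hg38). PFKL had 94.2, 90.0 and 94.4 CPM in QRICH1 KO Tm, against 129, 135 and 116 CPM in QRICH1 KO DMSO, and 93.2, 106 and 94.7 CPM in WT Tm, against 147, 126 and 119.6 CPM in WT DMSO. It was lower in every Tm library than in any DMSO library of the same genotype. Tm over DMSO gave a log2 fold change of -0.45 (adjusted p = 0.00854, SE 0.11) in QRICH1 KO and -0.42 (adjusted p = 0.00916, SE 0.11) in WT cells. The PFKL call in QRICH1 KO cells was lost without QRICH1 KO DMSO library 2, at a log2 fold change of -0.40 and an adjusted p of 0.0538. The PFKL call in WT cells was lost without WT Tm library 1, at a log2 fold change of -0.37 and an adjusted p of 0.0523. ALDOA splits fructose 1,6-bisphosphate. ALDOA had 24.6, 17.0 and 19.7 CPM in QRICH1 KO Tm, against 32.0, 32.8 and 17.3 CPM in QRICH1 KO DMSO, and 8.58, 14.6 and 9.73 CPM in WT Tm, against 19.2, 23.9 and 13.8 CPM in WT DMSO. Tm and DMSO libraries overlapped in both genotypes, although the WT fit called the gene. In QRICH1 KO cells the log2 fold change by Tm was -0.42 (adjusted p = 0.292, SE 0.25), and in WT cells it was -0.78 (adjusted p = 0.0406, SE 0.27). The ALDOA call in WT cells was lost without WT Tm library 1, WT Tm library 3, WT DMSO library 1 or WT DMSO library 2, at log2 fold changes of -0.60, -0.71, -0.77 and -0.56 and adjusted p-values of 0.178, 0.123, 0.0770 and 0.214. The counts behind ALDOA were 64 to 567 per library. HK2, PFKM, PFKP, ALDOC and TPI1 of the same phase were called in neither genotype. Of these, PFKM libraries were lower under Tm than under DMSO without overlap in QRICH1 KO cells, at a log2 fold change of -0.32 that was not called. TPI1 libraries did not overlap in WT cells, at -0.39 (adjusted p = 0.0607, SE 0.15). TPI1 passed the threshold in WT cells on library totals without TMM factors, with no count filter, with the replicate block, without both QRICH1 KO libraries 3 or without QRICH1 KO Tm library 3, QRICH1 KO DMSO library 3 or WT Tm library 2, at -0.58 to -0.39 (adjusted p = 3.69e-04 to 0.0462).

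In the payoff phase, which returns ATP and NADH, and the lactate step that follows it, LDHA and PGAM1 fell in WT cells. LDHA reduces pyruvate to lactate and so regenerates NAD+ (ENSG00000134333.14, chr11:18394388-18408425, plus strand, hg38). LDHA had 3727, 4247 and 3660.2 CPM in QRICH1 KO Tm, against 5302, 4850.1 and 4339 CPM in QRICH1 KO DMSO, and 2908, 3204 and 2995 CPM in WT Tm, against 5205, 4509 and 4799.5 CPM in WT DMSO. No Tm library reached the DMSO libraries of its genotype, and the WT Tm libraries were the lowest. The LDHA log2 fold change was -0.32 (adjusted p = 0.0705, SE 0.11) in QRICH1 KO cells and -0.67 (adjusted p = 2.86e-04, SE 0.12) in WT cells. LDHA passed the threshold in QRICH1 KO cells on library totals without TMM factors, by DESeq2 or without QRICH1 KO DMSO library 3, at -0.42 to -0.32 (adjusted p = 6.82e-04 to 0.0360). PGAM1 moves the phosphate of 3-phosphoglycerate to the neighbouring carbon (ENSG00000171314.9, chr10:97426160-97433441, plus strand, hg38). PGAM1 had 137, 147 and 122 CPM in QRICH1 KO Tm, against 167, 153 and 156 CPM in QRICH1 KO DMSO, and 101, 103 and 102 CPM in WT Tm, against 155, 143 and 146 CPM in WT DMSO. Here too Tm lay below DMSO without overlap in both genotypes, with the 3 WT Tm libraries lowest. For PGAM1 the fitted log2 fold change by Tm came to -0.23 (adjusted p = 0.128, SE 0.10) in QRICH1 KO cells and -0.54 (adjusted p = 6.45e-04, SE 0.10) in WT cells. PGAM1 passed the threshold in QRICH1 KO cells on library totals without TMM factors, at -0.34 (adjusted p = 0.0199).

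PKM makes pyruvate and ATP in the last step before the lactate branch (ENSG00000067225.18, chr15:72199029-72231822, minus strand, hg38). PKM had 3054, 3352 and 3998 CPM in QRICH1 KO Tm, against 5178, 5037 and 5849.7 CPM in QRICH1 KO DMSO, and 4326, 3828 and 2799 CPM in WT Tm, against 5021, 4751 and 5187 CPM in WT DMSO. Both genotypes showed lower values in all Tm libraries. On the log2 scale the Tm difference was -0.63 (adjusted p = 0.00663, SE 0.15) in QRICH1 KO cells and -0.45 (adjusted p = 0.0321, SE 0.15) in WT cells. The PKM call in WT cells was lost without WT Tm library 3, WT DMSO library 1, WT DMSO library 2 or WT DMSO library 3, at log2 fold changes of -0.29, -0.44, -0.48 and -0.42 and adjusted p-values of 0.174, 0.0638, 0.0585 and 0.0836. ENO2 is the neuronal form of enolase and a minor form here. ENO2 had 9.92, 7.49 and 6.60 CPM in QRICH1 KO Tm, against 10.1, 8.59 and 9.57 CPM in QRICH1 KO DMSO, and 6.60, 6.01 and 8.67 CPM in WT Tm, against 14.3, 10.1 and 9.75 CPM in WT DMSO. The groups were apart in WT cells and overlapped in QRICH1 KO cells. Tm over DMSO gave a log2 fold change of -0.23 (adjusted p = 0.519, SE 0.21) in QRICH1 KO and -0.69 (adjusted p = 0.0307, SE 0.22) in WT cells. The ENO2 call in WT cells was lost without WT Tm library 1, WT Tm library 2 or WT DMSO library 1, at log2 fold changes of -0.63, -0.58 and -0.51 and adjusted p-values of 0.102, 0.119 and 0.133. GAPDH, PGK1, ENO1 and LDHB were called in neither genotype. GAPDH, often used as a reference gene, had log2 fold changes of -0.10 (adjusted p = 0.670, SE 0.13) in QRICH1 KO cells and -0.16 (adjusted p = 0.424, SE 0.13) in WT cells, and its libraries overlapped in both. GAPDH passed the threshold in WT cells on library totals without TMM factors, at -0.35 (adjusted p = 0.00227).

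The PFKFB enzymes make and degrade fructose 2,6-bisphosphate, an activator of phosphofructokinase. PFKFB3 has the stronger kinase activity of the family. PFKFB3 had 8.01, 11.5 and 13.4 CPM in QRICH1 KO Tm, against 10.7, 17.5 and 20.8 CPM in QRICH1 KO DMSO, and 10.2, 10.4 and 12.3 CPM in WT Tm, against 18.8, 25.0 and 14.3 CPM in WT DMSO. The groups were apart in WT cells and overlapped in QRICH1 KO cells. In QRICH1 KO cells the log2 fold change by Tm was -0.58 (adjusted p = 0.135, SE 0.25), and in WT cells it was -0.83 (adjusted p = 0.0227, SE 0.25). The PFKFB3 call in WT cells was lost without WT Tm library 1, WT Tm library 2 or WT DMSO library 2, at log2 fold changes of -0.77, -0.80 and -0.59 and adjusted p-values of 0.0824, 0.0740 and 0.156. PFKFB3 passed the threshold in QRICH1 KO cells with no count filter or without QRICH1 KO DMSO library 1, at -0.81 to -0.58 (adjusted p = 0.0303 to 0.0323). PFKFB4 had 3.65, 2.81 and 3.26 CPM in QRICH1 KO Tm, against 5.43, 5.48 and 4.32 CPM in QRICH1 KO DMSO, and 2.64, 0.975 and 4.10 CPM in WT Tm, against 5.17, 4.99 and 4.91 CPM in WT DMSO. PFKFB4 was lower in every Tm library in both genotypes, on 12 to 96 counts per library. The PFKFB4 log2 fold change was -0.64 (adjusted p = 0.220, SE 0.33) in QRICH1 KO cells and -1.04 (adjusted p = 0.0398, SE 0.35) in WT cells. The PFKFB4 call in WT cells was lost without QRICH1 KO DMSO library 2, WT Tm library 1, WT Tm library 2, WT DMSO library 1, WT DMSO library 2 or WT DMSO library 3, at log2 fold changes of -1.04, -1.11, -0.62, -1.03, -1.05 and -1.06 and adjusted p-values of 0.0535, 0.0781, 0.171, 0.0749, 0.0893 and 0.0722. With the WT groups fitted alone it was also lost (adjusted p = 0.0665). PFKFB2, and the pair at the pyruvate dehydrogenase gate (PDK1, a kinase that shuts the complex down, and PDHA1, a subunit of it), were called in neither genotype. PDK1 had log2 fold changes of 0.53 (adjusted p = 0.196, SE 0.26) in QRICH1 KO cells and 0.36 (adjusted p = 0.359, SE 0.26) in WT cells. PDK1 passed the threshold in QRICH1 KO cells without QRICH1 KO DMSO library 3, at 0.87 (adjusted p = 0.0322).

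The glycolysis genes together took 2.94% to 3.23% of all counts in QRICH1 KO Tm, against 3.88% to 4.19% in QRICH1 KO DMSO, and 2.67% to 2.92% in WT Tm, against 3.86% to 4.20% in WT DMSO. The ranges of Tm and DMSO did not overlap in either genotype. The shares were compared by their ranges alone, and an exact two-sided permutation test of 3 libraries against 3 cannot go below p = 0.10. In the same libraries the ER stress genes HSPA5, HSP90B1, DNAJB9, HERPUD1, XBP1, ATF4, DDIT3 and TRIB3 took 2.28% to 2.49% in QRICH1 KO Tm, 0.230% to 0.239% in QRICH1 KO DMSO, 3.73% to 3.78% in WT Tm and 0.212% to 0.240% in WT DMSO. The part of this shift in composition in the lower glycolysis share was not tested. In bulk RNA, fewer cells of a kind and less RNA per cell cannot be told apart.

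**Figure D3:**
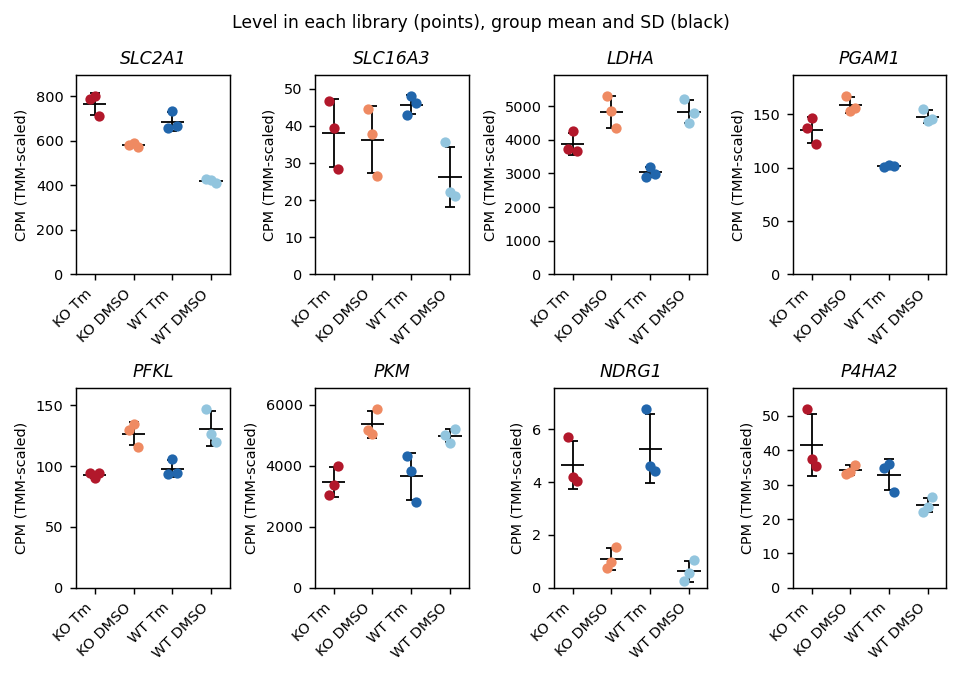
CPM of 8 members in each library (points) with the group mean and SD (black), groups from left to right QRICH1 KO Tm, QRICH1 KO DMSO, WT Tm and WT DMSO. SLC2A1 is higher and LDHA, PGAM1, PFKL and PKM are lower in the Tm libraries of both genotypes (LDHA averaged 3878 ± 321 CPM in QRICH1 KO Tm and 4830.3 ± 482 CPM in QRICH1 KO DMSO, SD, n = 3 each).

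Of the 13 HIF genes 11 were called in neither genotype. HIF1A itself, the oxygen-regulated subunit, had 55.1 to 73.5 CPM in QRICH1 KO Tm, 51.9 to 66.6 CPM in QRICH1 KO DMSO, 56.1 to 61.7 CPM in WT Tm and 52.0 to 60.0 CPM in WT DMSO, and its groups overlapped in both genotypes. The log2 fold change of HIF1A by Tm was 0.13 (adjusted p = 0.545, SE 0.13) in QRICH1 KO cells and 0.08 (adjusted p = 0.695, SE 0.13) in WT cells. HIF1A mRNA does not report the protein, which is controlled mainly by its breakdown. EGLN1 and EGLN3, the prolyl hydroxylases that mark HIF for breakdown, were called in neither genotype. The median log2 fold change of the 13 genes was 0.14 in QRICH1 KO cells and 0.08 in WT cells, where library totals without TMM factors turned it to -0.10.

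NDRG1, a stress-responsive gene induced by hypoxia, rose in both genotypes. NDRG1 had 5.71, 4.21 and 4.06 CPM in QRICH1 KO Tm, against 0.735, 0.970 and 1.56 CPM in QRICH1 KO DMSO, and 6.76, 4.63 and 4.41 CPM in WT Tm, against 0.272, 0.548 and 1.04 CPM in WT DMSO. The counts behind these values were 72, 36 and 51 in QRICH1 KO Tm, 13, 14 and 25 in QRICH1 KO DMSO, 82, 57 and 29 in WT Tm and 2, 9 and 14 in WT DMSO. All Tm libraries exceeded all DMSO libraries, and WT DMSO library 1, with 2 counts, was under the limit of 3. For NDRG1 the fitted log2 fold change by Tm came to 2.10 (adjusted p = 7.83e-04, SE 0.38) in QRICH1 KO cells and 2.99 (adjusted p = 3.24e-05, SE 0.42) in WT cells. P4HA2, a subunit of the enzyme that hydroxylates proline in collagen within the ER, also rose in WT cells. P4HA2 had 52.0, 37.5 and 35.5 CPM in QRICH1 KO Tm, against 33.1, 33.8 and 35.8 CPM in QRICH1 KO DMSO, and 34.8, 36.2 and 27.8 CPM in WT Tm, against 22.2, 23.6 and 26.3 CPM in WT DMSO. The WT groups were apart, and the QRICH1 KO groups overlapped. On the log2 scale the Tm difference was 0.29 (adjusted p = 0.216, SE 0.15) in QRICH1 KO cells and 0.46 (adjusted p = 0.0369, SE 0.15) in WT cells. The P4HA2 call in WT cells was lost without QRICH1 KO DMSO library 2, WT Tm library 1, WT Tm library 2, WT DMSO library 1 or WT DMSO library 2, at log2 fold changes of 0.46, 0.43, 0.38, 0.41 and 0.44 and adjusted p-values of 0.0508, 0.105, 0.142, 0.106 and 0.107. It was also lost on library totals without TMM factors, at 0.26 (adjusted p = 0.260).

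The other 8 HIF targets passed the test in neither genotype. P4HA1, the partner isoform of P4HA2, lay higher in every Tm library of its genotype without a call, at log2 fold changes of 0.28 (adjusted p = 0.131, SE 0.12) in QRICH1 KO cells and 0.30 (adjusted p = 0.0905, SE 0.12) in WT cells. BNIP3L, a mitophagy receptor, was apart in WT cells at 0.43 (adjusted p = 0.0528, SE 0.15). BNIP3L passed the threshold in WT cells with DESeq2 size factors, by DESeq2, with the replicate block or without QRICH1 KO DMSO library 1, QRICH1 KO DMSO library 3 or WT DMSO library 3, at 0.43 to 0.51 (adjusted p = 0.0382 to 0.0497). The tumour hypoxia marker CA9, a carbonic anhydrase on the cell surface, had 1.40 to 3.33 CPM in QRICH1 KO Tm, 2.60 to 2.81 CPM in QRICH1 KO DMSO, 1.65 to 3.17 CPM in WT Tm and 3.35 to 4.22 CPM in WT DMSO, with log2 fold changes of -0.15 (adjusted p = 0.823, SE 0.34) in QRICH1 KO cells and -0.62 (adjusted p = 0.212, SE 0.34) in WT cells. In WT cells the CA9 libraries lay lower under Tm than under DMSO without overlap, and the gene was not called. CA9, BNIP3 and ANKRD37, all strong hypoxia targets in many cells, stayed under 5 CPM in every library. The remaining KDM3A, ADM and MXI1 had log2 fold changes of 0.28, -0.19 and 0.14 in QRICH1 KO cells and 0.17, -0.11 and 0.02 in WT cells.

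QRICH1 KO against WT gave no call among the 37 genes in either treatment. Under Tm, 1.17% of all genes were called (0.406% higher and 0.76% lower), and the smallest adjusted p among the members was 0.0571 (PGAM1). By edgeR 0 of 37 were called, 4 had an unadjusted p under 0.05, all higher in QRICH1 KO Tm (ALDOA, PGAM1, LDHA and P4HA2), and DESeq2 called 1 (PGAM1). Of all 11323 genes, 1513 had an unadjusted edgeR p under 0.05 in this comparison, so 4 of 37 is no excess. The log2 fold change of QRICH1 KO Tm over WT Tm was 0.41 (adjusted p = 0.0571, SE 0.10) for PGAM1, 0.35 (adjusted p = 0.167, SE 0.11) for LDHA and 0.89 (adjusted p = 0.128, SE 0.27) for ALDOA. For these 3 enzymes, and for ALDOC and EGLN3, the QRICH1 KO Tm libraries all lay above the WT Tm libraries, and no member lay the other way. How many of all tested genes separated in this way was not counted, so the separation alone does not show a genotype effect. LDHA averaged 3878 ± 321 CPM in QRICH1 KO Tm and 3036 ± 152 CPM in WT Tm (SD, n = 3 each). PGAM1 averaged 135 ± 12.3 CPM in QRICH1 KO Tm and 102 ± 0.767 CPM in WT Tm (SD, n = 3 each). PGAM1 passed the threshold on library totals without TMM factors (adjusted p = 0.0223), by DESeq2 (adjusted p = 0.0157), at a minimum count of 30 (adjusted p = 0.0469) and without both QRICH1 KO libraries 3 (adjusted p = 0.0455), at 0.39 to 0.47. LDHA did so on library totals without TMM factors, at 0.41 (adjusted p = 0.0103). ALDOA passed the threshold with no count filter (adjusted p = 4.24e-04) and with the replicate block (adjusted p = 0.0431), at 0.89 to 0.95. The median log2 fold change was 0.12 for glycolysis and 0.02 for HIF genes, against 0.00972 for all genes.

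**Figure D4:**
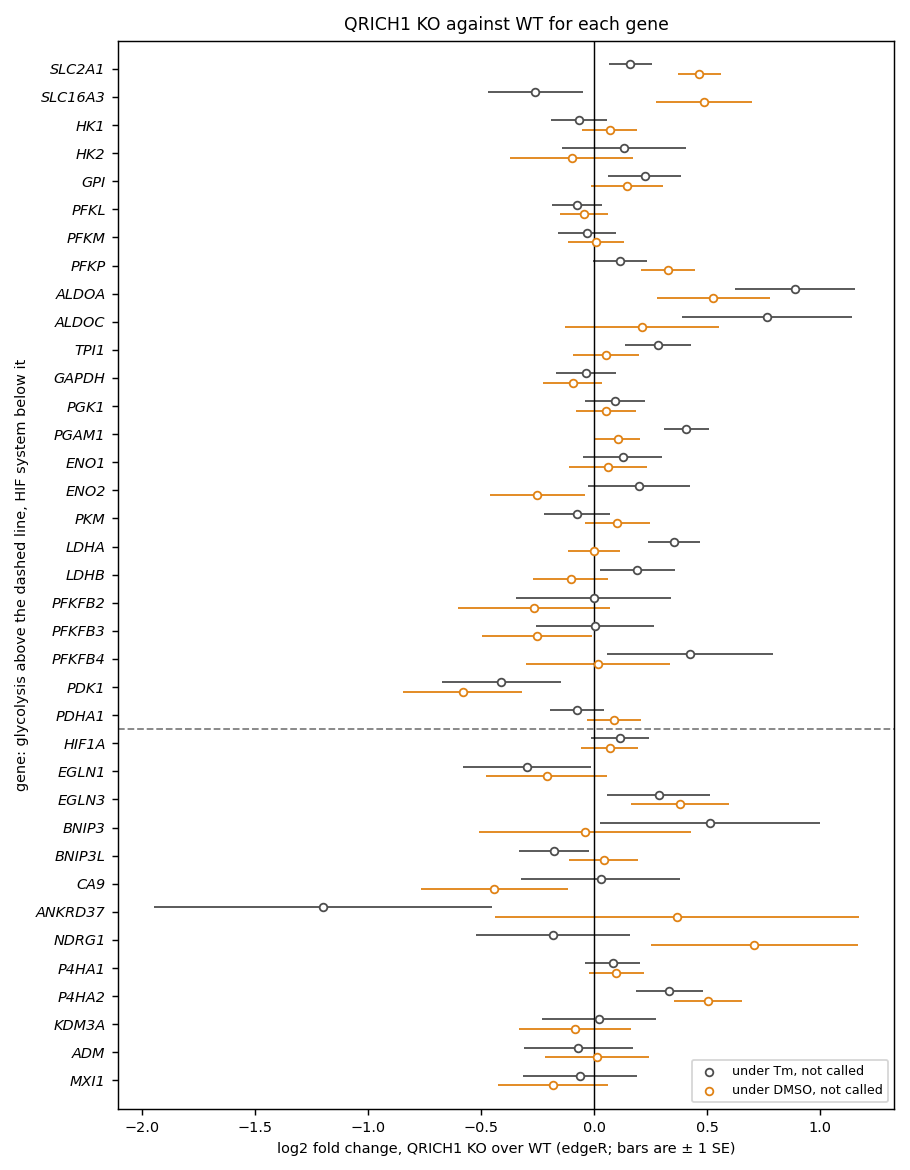
Log2 fold change of QRICH1 KO over WT (horizontal axis, bars ± 1 SE) for the 37 genes under Tm (grey) and DMSO (orange), with open symbols because none was called. ALDOA, PGAM1 and LDHA lie to the right of 0 under Tm (0.89, 0.41 and 0.35), and SLC2A1 lies to the right under DMSO (0.47).

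Under DMSO, 0.0971% of all genes were called (0.0177% higher and 0.0795% lower), and again 0 of 37 members by edgeR. At an unadjusted p under 0.05 there were 6, of which 5 were higher and 1 lower in QRICH1 KO DMSO, and DESeq2 called 1 (SLC2A1). Of all 11323 genes, 1027 had an unadjusted edgeR p under 0.05 here. SLC2A1 had 579, 591 and 574 CPM in QRICH1 KO DMSO, against 428, 423 and 412 CPM in WT DMSO, with no overlap. Its log2 fold change was 0.47 (adjusted p = 0.0776, SE 0.10), short of the threshold in edgeR. SLC2A1 passed the threshold on library totals without TMM factors (adjusted p = 0.0362), by DESeq2 (adjusted p = 0.00118) and with no count filter (adjusted p = 0.0235), at 0.45 to 0.47. P4HA2 libraries also lay higher in QRICH1 KO DMSO, at 0.50 (adjusted p = 0.308, SE 0.15), and CA9 libraries lay lower, at -0.44 (adjusted p = 0.710, SE 0.33). The medians were 0.05 for glycolysis and 0.04 for HIF genes. Under Tm, SLC2A1 libraries of the genotypes overlapped, at 0.16 (adjusted p = 0.503, SE 0.10).

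The interaction asks whether the Tm response in QRICH1 KO cells differs from that in WT cells. It called 0% of all genes by edgeR (0 of 11323, with 774 at an unadjusted p under 0.05 and 35 by DESeq2). Among the members 0 of 37 were called, 4 had an unadjusted p under 0.05 and DESeq2 called 0. Those 4 were SLC16A3 at -0.75 (adjusted p = 0.654, SE 0.30), SLC2A1 at -0.31 (adjusted p = 0.723, SE 0.14), LDHA at 0.36 (adjusted p = 0.725, SE 0.16) and PGAM1 at 0.30 (adjusted p = 0.727, SE 0.14), as the log2 response in QRICH1 KO less that in WT. The larger number of calls in WT cells is therefore not shown to be a difference between the genotypes. The interaction shares all its libraries with the comparisons above. Its median was 0.13 for glycolysis and -0.08 for HIF genes, against 0.00867 for all genes; on library totals the HIF median was 0.00106.

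Around the 37 genes, 9 lists of related genes held 127 genes, of which 94 were tested. Under Tm 15 rose and 5 fell in QRICH1 KO cells, and 22 rose and 8 fell in WT cells. The higher calls were 16.0% of the 94 in QRICH1 KO cells and 23.4% in WT cells, beside 9.09% and 12.6% of all genes. The lists were chosen with earlier results of these data known, so these shares do not test the pathways. The lower calls were 5.32% in QRICH1 KO cells and 8.51% in WT cells, under the 6.53% and 11.1% of all genes. SLC2A10 and TXNIP rose in both genotypes. SLC2A10, a facilitative glucose carrier of internal membranes, had 11.0, 10.4 and 9.47 CPM in QRICH1 KO Tm, against 3.84, 3.05 and 3.94 CPM in QRICH1 KO DMSO, and 19.9, 19.1 and 20.7 CPM in WT Tm, against 4.08, 4.99 and 3.50 CPM in WT DMSO. Tm over DMSO gave a log2 fold change of 1.51 (adjusted p = 1.91e-05, SE 0.19) in QRICH1 KO and 2.23 (adjusted p = 7.46e-08, SE 0.19) in WT cells. TXNIP had 148, 158 and 129.8 CPM in QRICH1 KO Tm, against 50.9, 44.6 and 46.4 CPM in QRICH1 KO DMSO, and 239, 219 and 216 CPM in WT Tm, against 66.9, 57.8 and 49.3 CPM in WT DMSO. TXNIP, which promotes removal of glucose carriers from the cell surface, was higher in every Tm library. In QRICH1 KO cells the log2 fold change by Tm was 1.62 (adjusted p = 2.08e-08, SE 0.12), and in WT cells it was 1.96 (adjusted p = 9.51e-10, SE 0.12). MPC1, part of the mitochondrial pyruvate carrier, rose in WT cells at 0.81 (adjusted p = 7.16e-04, SE 0.15), and BSG, a chaperone of lactate carriers, fell in QRICH1 KO cells at -0.45 (adjusted p = 0.0110, SE 0.11). The BSG call in QRICH1 KO cells was lost without QRICH1 KO Tm library 3, at -0.41 (adjusted p = 0.0523). In all, 1 of 11 tested carriers rose and 1 fell in QRICH1 KO cells (9.09% each), and 4 rose in WT cells (36.4%). By DESeq2, and at an unadjusted p under 0.05, 4 rose in each genotype.

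Of 5 further glycolytic isoenzymes tested, 1 rose in each genotype: HKDC1, a hexokinase domain protein, at 1.22 (adjusted p = 1.02e-04, SE 0.18) in QRICH1 KO cells and 1.73 (adjusted p = 1.16e-06, SE 0.18) in WT cells. The 2 called genes of gluconeogenesis went opposite ways in both genotypes. PCK2, the mitochondrial form of the enzyme that makes phosphoenolpyruvate and a known ATF4 target, had 74.3, 77.4 and 69.8 CPM in QRICH1 KO Tm, against 24.6, 21.3 and 25.4 CPM in QRICH1 KO DMSO, and 101, 120.5 and 122 CPM in WT Tm, against 22.3, 23.6 and 19.5 CPM in WT DMSO. The PCK2 log2 fold change was 1.63 (adjusted p = 1.64e-08, SE 0.12) in QRICH1 KO cells and 2.39 (adjusted p = 6.57e-11, SE 0.13) in WT cells. FBP1, which runs opposite to phosphofructokinase, fell at -0.54 (adjusted p = 0.0253, SE 0.16) in QRICH1 KO cells and -0.81 (adjusted p = 0.00106, SE 0.16) in WT cells. The FBP1 call in QRICH1 KO cells was lost without both QRICH1 KO libraries 3 or without QRICH1 KO Tm library 2, QRICH1 KO Tm library 3, QRICH1 KO DMSO library 1 or QRICH1 KO DMSO library 2, at -0.59 to -0.40 (adjusted p = 0.0573 to 0.134). Of 10 genes of glycogen and glucose phosphate metabolism 2 rose and 3 fell in each genotype (20% and 30%). Of all genes, 9.09% rose and 6.53% fell in QRICH1 KO cells, and 12.6% rose and 11.1% fell in WT cells. PYGB, the brain form of glycogen phosphorylase, rose at 0.71 (adjusted p = 2.13e-04, SE 0.11) in QRICH1 KO cells and 1.15 (adjusted p = 4.12e-07, SE 0.11) in WT cells. GYS1, the muscle form of glycogen synthase, fell at -0.50 (adjusted p = 0.0218, SE 0.14) in QRICH1 KO cells and -0.52 (adjusted p = 0.0131, SE 0.14) in WT cells. The GYS1 call in QRICH1 KO cells was lost without both QRICH1 KO libraries 3 or without QRICH1 KO Tm library 2, QRICH1 KO Tm library 3, QRICH1 KO DMSO library 1 or QRICH1 KO DMSO library 2, at -0.50 to -0.45 (adjusted p = 0.0561 to 0.0960). The GYS1 call in WT cells was lost without WT Tm library 3 or WT DMSO library 1, at -0.42 to -0.35 (adjusted p = 0.0731 to 0.0830). No gene of the pentose phosphate pathway (8 tested) or of the rest of the pyruvate dehydrogenase set (10 tested) was called in either genotype by edgeR. At an unadjusted p under 0.05 there were 0 and 1 in QRICH1 KO cells and 2 and 0 in WT cells, and DESeq2 called 0 and 0 in QRICH1 KO cells and 1 and 0 in WT cells.

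Of 32 other HIF targets tested, 7 rose and 0 fell in QRICH1 KO cells (3 fell at an unadjusted p under 0.05 and 0 by DESeq2), and 11 rose and 4 fell in WT cells. The higher calls were 21.9% of the 32 in QRICH1 KO cells and 34.4% in WT cells, above the shares of all genes given earlier. The 4 lower calls in WT cells were near the share of all genes. Because this list was chosen with earlier results of these data known, the excess is not a test of HIF targets. VEGFA, the angiogenic growth factor and also a target of ATF4, had 6.98, 10.4 and 9.31 CPM in QRICH1 KO Tm, against 1.92, 1.04 and 2.69 CPM in QRICH1 KO DMSO, and 9.65, 7.97 and 7.30 CPM in WT Tm, against 3.27, 2.86 and 1.71 CPM in WT DMSO. Tm and DMSO libraries were apart in both genotypes. For VEGFA the fitted log2 fold change by Tm came to 2.22 (adjusted p = 5.82e-05, SE 0.31) in QRICH1 KO cells and 1.70 (adjusted p = 5.73e-04, SE 0.31) in WT cells. DDIT4, ERO1A and INSIG2 also rose in both, with log2 fold changes of 3.82, 1.03 and 0.79 in QRICH1 KO cells and 4.82, 1.53 and 0.89 in WT cells. The INSIG2 call in QRICH1 KO cells was lost on library totals without TMM factors or without QRICH1 KO Tm library 2, QRICH1 KO Tm library 3, QRICH1 KO DMSO library 1 or QRICH1 KO DMSO library 2, at 0.68 to 0.78 (adjusted p = 0.0529 to 0.0897). The INSIG2 call in WT cells was lost on library totals without TMM factors, at 0.70 (adjusted p = 0.0615). DDIT4 restrains mTORC1, ERO1A is an ER oxidase and INSIG2 an ER protein of sterol control, and DDIT4 and ERO1A are known also as genes of the unfolded protein response. Of 9 genes of the HIF machinery, 2 rose in QRICH1 KO cells (EPAS1 at 0.60, the HIF-2 alpha subunit, and ELOC at 0.35) and 1 in WT cells (ELOC at 0.51). The EPAS1 call in QRICH1 KO cells was lost without both QRICH1 KO libraries 3 or without QRICH1 KO Tm library 2, QRICH1 KO Tm library 3, QRICH1 KO DMSO library 1 or QRICH1 KO DMSO library 3, at 0.52 to 0.61 (adjusted p = 0.0527 to 0.132). The ELOC call in QRICH1 KO cells was lost on library totals without TMM factors, with no count filter, without both QRICH1 KO libraries 3 or without QRICH1 KO Tm library 1, QRICH1 KO Tm library 2, QRICH1 KO Tm library 3, QRICH1 KO DMSO library 2, QRICH1 KO DMSO library 3, WT Tm library 3 or WT DMSO library 2, at 0.25 to 0.37 (adjusted p = 0.0514 to 0.181). The ELOC call in WT cells was lost on library totals without TMM factors, at 0.32 (adjusted p = 0.0655).

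Between the genotypes 4 of the 94 were lower in QRICH1 KO Tm than in WT Tm and 0 were higher by edgeR (3 higher at an unadjusted p under 0.05 and 1 by DESeq2). The lower calls were 4.26% of the 94, beside 0.76% of all genes, in lists chosen with earlier results of these data known. PGM1, which interconverts glucose 1-phosphate and glucose 6-phosphate, had 33.2, 30.7 and 22.3 CPM in QRICH1 KO Tm, against 54.3, 67.9 and 53.4 CPM in WT Tm, and 28.5, 28.8 and 20.3 CPM in QRICH1 KO DMSO, against 51.2, 54.4 and 43.2 CPM in WT DMSO. All QRICH1 KO libraries lay below all WT libraries. The log2 fold change of QRICH1 KO over WT was -1.03 (adjusted p = 0.00484, SE 0.17) under Tm and -0.94 (adjusted p = 0.0296, SE 0.17) under DMSO, the one call of the 94 under DMSO. The PGM1 call under DMSO was lost with the 2 groups compared fitted alone or without QRICH1 KO Tm library 2, QRICH1 KO DMSO library 2, QRICH1 KO DMSO library 3, WT Tm library 3, WT DMSO library 1 or WT DMSO library 2, at -1.02 to -0.79 (adjusted p = 0.0530 to 0.194). SLC2A10 was lower in QRICH1 KO Tm at -0.95 (adjusted p = 0.0124, SE 0.18), PCK2 at -0.63 (adjusted p = 0.0108, SE 0.12) and TXNIP at -0.63 (adjusted p = 0.0118, SE 0.12). The SLC2A10 call under Tm was lost without QRICH1 KO Tm library 2 or QRICH1 KO Tm library 3, at -0.95 to -0.89 (adjusted p = 0.0558 to 0.0591). The PCK2 call under Tm was lost without QRICH1 KO Tm library 3, WT Tm library 2 or WT Tm library 3, at -0.60 to -0.58 (adjusted p = 0.0535 to 0.0554). The TXNIP call under Tm was lost without QRICH1 KO Tm library 3 or WT Tm library 1, at -0.61 to -0.56 (adjusted p = 0.0512 to 0.0591). The libraries of QRICH1 KO Tm lay between those of the DMSO groups and those of WT Tm for each of these 3 genes. In the interaction 0 of the 94 were called by edgeR (12 at an unadjusted p under 0.05), and DESeq2 called 1.

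**Figure D5:**
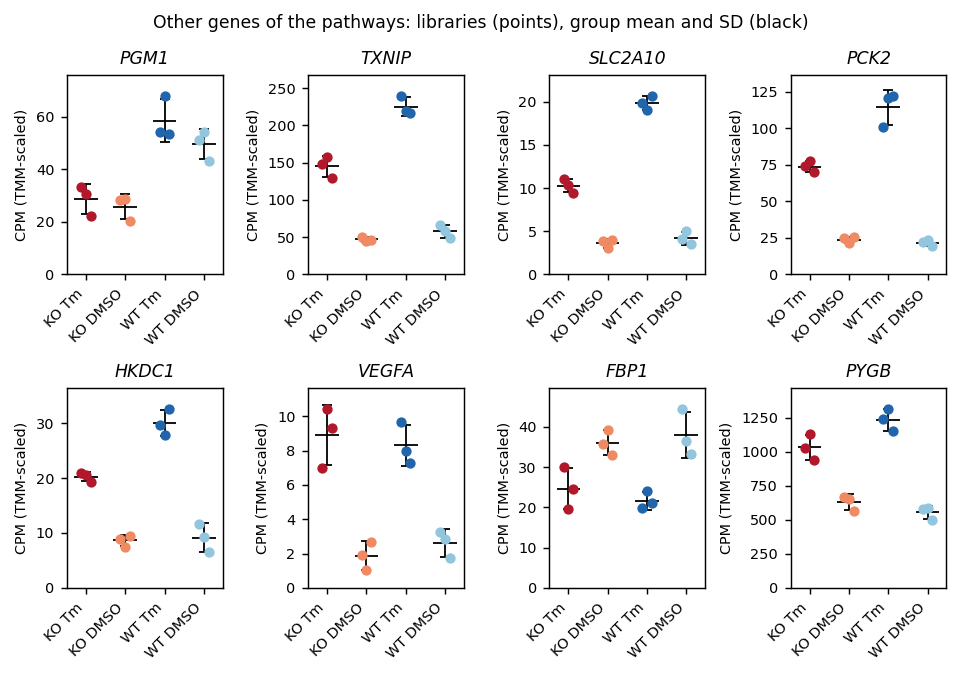
CPM of 8 genes of the surrounding pathways in each library (points) with the group mean and SD (black), groups from left to right QRICH1 KO Tm, QRICH1 KO DMSO, WT Tm and WT DMSO. PGM1 is lower in QRICH1 KO than in WT libraries in both treatments (28.7 ± 5.70 CPM in QRICH1 KO Tm and 58.5 ± 8.17 CPM in WT Tm, SD, n = 3 each), and TXNIP, SLC2A10 and PCK2 are highest in WT Tm.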

How the data were processed

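RNA was measured in 12 libraries of 3 per group. Per the labels' protocols, libraries were made by a modified Smart-seq2 method and Nextera XT and sequenced on an Illumina NextSeq. The authors deposited whole-number read counts per gene, not normalized, in 1 table. Trimmomatic, STAR, DESeq2 and hg38 are named in the submitters' processing notes; the counting tool is not given in the sources used here, nor is its handling of shared reads. Libraries of 1 group differed beyond sampling noise in every pair (chi-square per degree of freedom 8.64 to 35.8).

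Gene IDs were matched to symbols, and positions and exon lengths were taken from GENCODE release 29 (19972 of 20015 IDs). Counts were scaled by TMM, filtered by filterByExpr with a minimum count of 10, and tested with edgeR 4.0.16 (R 4.3.3), in 1 quasi-likelihood fit of the 4 group means over all 12 libraries (common biological coefficient of variation 0.155, 8 residual degrees of freedom), for 5 comparisons, two-sided. P-values were adjusted over all genes and the SE was taken from the F statistic. The script was tested on simulated data. CPM per kb is CPM divided by the summed length of all exons. Alternatives were DESeq2 1.42.0, other scalings and filters, a replicate block, the compared groups alone, both QRICH1 KO libraries 3 left out, and each library left out.

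The members and lists were chosen with earlier results of these data known. Values in every library are given for members called in at least 1 comparison. From the other lists, up to 4 called genes per list and comparison with the largest log2 fold change and a mean of at least 5 CPM could be named. NDRG1 and BNIP3L promoter sequence was not used here.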

Additional observations from a re-analysis of the deposited data

How the results depend on the processing

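No called log2 fold change named in the text changed direction under the 12 leave-one-out fits or the 8 other settings. Some values that were not called did. Library totals without TMM factors gave -0.026 for SLC16A3 in QRICH1 KO cells, and -0.10 for HIF1A, -0.0037 for KDM3A and -0.17 for MXI1 in WT cells, and ADM was 0.11 in QRICH1 KO cells with both libraries 3 of that genotype left out. With 1 library left out, SLC16A3 ran from -0.11 to 0.25 (QRICH1 KO Tm library 1 or QRICH1 KO DMSO library 3 turned it), CA9 from -0.47 to 0.094 (QRICH1 KO Tm library 2) and ADM from -0.40 to 0.011 (QRICH1 KO Tm library 3) in QRICH1 KO cells. The ranges in WT cells were -0.026 to 0.38 for KDM3A (WT Tm library 3), -0.24 to 0.0045 for ADM (WT Tm library 1) and -0.19 to 0.19 for MXI1 (WT Tm library 1 or WT DMSO library 2). ANKRD37 in QRICH1 KO cells changed sign under 4 settings, down to -0.31. BNIP3 turned to -0.074 in QRICH1 KO cells (QRICH1 KO Tm library 3) and to 0.014 in WT cells (WT Tm library 1). Library totals without TMM factors shifted the median of all genes by Tm to -0.11 in QRICH1 KO cells and -0.21 in WT cells, and gave 36.3% and 28.5% of calls as higher, against 58.2% and 53.2% with TMM. On those totals 8 glycolysis genes fell in QRICH1 KO cells and 16 in WT cells, and 1 HIF gene rose in WT cells; the HIF median in WT cells was then -0.098. QRICH1 KO Tm against WT Tm gave 2 higher glycolysis genes and 53.7% of calls higher (34.8% with TMM), QRICH1 KO DMSO against WT DMSO gave 1, and the interaction called 5 genes. The DESeq2 Wald test gave 5 glycolysis genes lower in QRICH1 KO cells, 1 higher in each genotype comparison, and over all genes 289, 58 and 35 calls under Tm, under DMSO and in the interaction, against 132, 11 and 0. With no count filter these were 279, 138 and 44, with 5 glycolysis genes lower in QRICH1 KO cells and 1 higher in each genotype comparison, and 45.2% and 55.1% of calls higher under Tm and DMSO (34.8% and 18.2% with the filter). At a minimum count of 30 the Tm genotype comparison called 1 glycolysis gene. Without both QRICH1 KO libraries 3 it called 1, and the DMSO comparison called 59 genes, 67.8% of them higher. Fitting the compared groups alone gave 6 genes under DMSO. The causes were not tested.

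Replicate numbers did not pair the libraries of all groups. Over 18 same-numbered pairs the correlation of deviations ran from -0.186 to 0.265, and 6 exceeded 0.1. Of the 18, 9 correlated better than the best pair of unlike numbers. The 6 were libraries 1 and 3 of QRICH1 KO Tm, QRICH1 KO DMSO and WT DMSO, at 0.110 to 0.265. Same-numbered pairs with WT Tm ran from -0.186 to 0.0535. For libraries 1 and 3 of both QRICH1 KO groups, the best unlike-numbered pair with WT Tm was at 0.159 to 0.226. Whether the libraries were paired, by these or by other numbers, was not tested further. The replicate block used the numbers as labelled. With the replicate block 1 glycolysis gene was higher in QRICH1 KO Tm than in WT Tm, and 17 genes were called under DMSO.

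Leaving out 1 library gave 1 to 2 glycolysis genes higher in QRICH1 KO cells and 1 to 2 in WT cells, 3 to 10 lower in WT cells and 1 to 4 HIF genes higher in WT cells. Lower glycolysis genes in WT cells were 3 without WT Tm library 1, 5 without WT DMSO library 1 and 5 without WT DMSO library 2. Over all genes the calls were 1109 to 1858 for Tm in QRICH1 KO cells, 56 to 160 between genotypes under Tm, 5 to 39 under DMSO and 0 to 4 in the interaction. Among the 37 genes, the calls that held in all 12 such fits were SLC2A1 and NDRG1 in both genotypes, PGAM1 and LDHA in WT cells and PKM in QRICH1 KO cells. With 3 libraries a group and 64 to 567 counts for ALDOA, 12 to 96 for PFKFB4 and 2 to 82 for NDRG1, the low members are measured least precisely.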
